A study of Ovis aries with 20 samples.

Results

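Polycystic ovary syndrome is a common endocrine disorder of women in which ovarian androgen output is raised and follicles stop short of ovulation, and human association studies have tied it to loci that lie in or beside a set of genes. DENND1A, THADA, YAP1, HMGA2, ERBB4, TOX3, RAB5B, SUOX, ZBTB16 and MAPRE1 were followed here in ovarian follicles of sheep exposed to testosterone before birth, which serve as an animal model of the syndrome. The 10 genes were found by name in a table of normalized gene counts. Of the 10, 9 had a row among the 28524 genes of the table, and ERBB4 was not analysed here.

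The prenatal T sheep were 5 offspring (209, 210, 230, 276 and 315) of ewes injected in gestation, between days 30 and 90, with 100 mg (1.2 mg/kg) of testosterone propionate 2 times a week. The control sheep were 5 offspring (139, 224, 244, 246 and 268) of ewes that got vehicle over the same days. Both groups were 21 months old and had 2 injections of 10 mg prostaglandin F2α at an interval of 11 days, with the ovaries removed 18 h after the later one. Granulosa and theca cells were cut by microdissection out of 14 µm cryosections, and material from several antral follicles was pooled for each animal, so a library is an average over follicles of unstated size. RNA sequencing gave 19 libraries: granulosa cells of 5 prenatal T and 4 control sheep, and theca cells of 5 prenatal T and 5 control sheep. The granulosa cells of control sheep 139 were not analysed here.

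Granulosa cells line the inside of the follicle and convert androgen to estradiol, while theca cells form its outer wall and make the androgen. The genes at the risk loci have unlike roles. DENND1A and RAB5B act in vesicle traffic from the cell surface, ERBB4 is a surface receptor for growth factors of the neuregulin and EGF type, and YAP1 carries the output of the Hippo pathway to the nucleus. HMGA2, TOX3 and ZBTB16 bind DNA or chromatin, THADA takes part in the methylation of tRNA in human cells, SUOX oxidizes sulfite in mitochondria and MAPRE1 tracks the growing ends of microtubules.

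The libraries held 12.7 to 26.0 M reads in genes. Sheep 209, a prenatal T animal, stood apart in both layers, and values are given with and without it where it moved them. The summed normalized count of 9 markers of epithelium was 96578 in its granulosa library, against 151 to 4022 in the other granulosa libraries, and 23615 in its theca library, against 105 to 687 in the other theca libraries. Of 11 granulosa markers, AMH, FSHR and CYP19 were at 0 in its granulosa library and the sum was 25670, against 66652 to 219147 in the other 8, and CYP17A1, an enzyme of androgen synthesis in theca cells, was at 0 in its theca library. The sum of 13 theca markers in its theca library was 391345, the lowest of that layer, and 6 immune cell markers summed to 13037 in its granulosa library (172 to 1835 in the others) and 16070 in its theca library (575 to 1984 in the others). In the remaining libraries the markers lay as labelled, with granulosa markers at 22167 to 49296 in theca cells, and theca markers at 21666 to 85917 in granulosa and 608791 to 898511 in theca cells. In a dissected layer, fewer cells of a type and less RNA per cell cannot be told apart.

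Between the layers 5 of the 9 genes passed the test, and for prenatal T none did. In the same animals TOX3, DENND1A and MAPRE1 were higher, and YAP1 and RAB5B lower, in granulosa than in theca cells, by limma with the animal as a block and p adjusted over all genes tested (threshold 0.05). The 5 called genes of 9 compare with 56.6% of all 16269 genes tested, 28.6% being higher and 28.0% lower in granulosa cells, so the share is near that of genes at large. Without sheep 209, HMGA2 was called as well, which made 6 of 9 genes beside 62.7% of all genes. DENND1A and TOX3 were higher and YAP1 was lower in the granulosa layer of all 9 animals with both layers, and 30.8% of all genes had the same direction in the 9 animals.

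For prenatal T against control, 0 of 9 genes passed in granulosa cells and 0 of 8 in theca cells, where TOX3 was below the minimum for the test, a normalized count of at least 10 in at least 5 libraries. All genes gave 0.0% in each layer, and edgeR and DESeq2 on the reads recovered from the table called none of the 9 genes either. By limma with all libraries THADA alone had an unadjusted p under 0.05, in both layers, or 1 of 9 genes in granulosa cells and 1 of 8 in theca cells beside 4.22% and 7.69% of all genes. With sheep 209 left out, the adjusted counts were again 0 of 9 and 0 of 8 (0.0% of all genes in each layer). TOX3 then joined THADA at an unadjusted p under 0.05 in granulosa cells, 2 of 9 genes beside 7.01% of all genes, while in theca cells it was 1 of 8 beside 12.1%. No gene of the set had prenatal T and control values free of overlap with all libraries (2.41% of all genes in granulosa, 2.26% in theca cells). Without sheep 209 TOX3 alone did, in granulosa cells (3.85% and 4.61% of all genes). The difference of the prenatal T effects between the layers was called for 0 of 9 genes, with 0.0% of all genes called, and for 0 of 9 without sheep 209, again with 0.0%; unadjusted p was under 0.05 for 0 of the 9 in both.

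**Figure D1:**
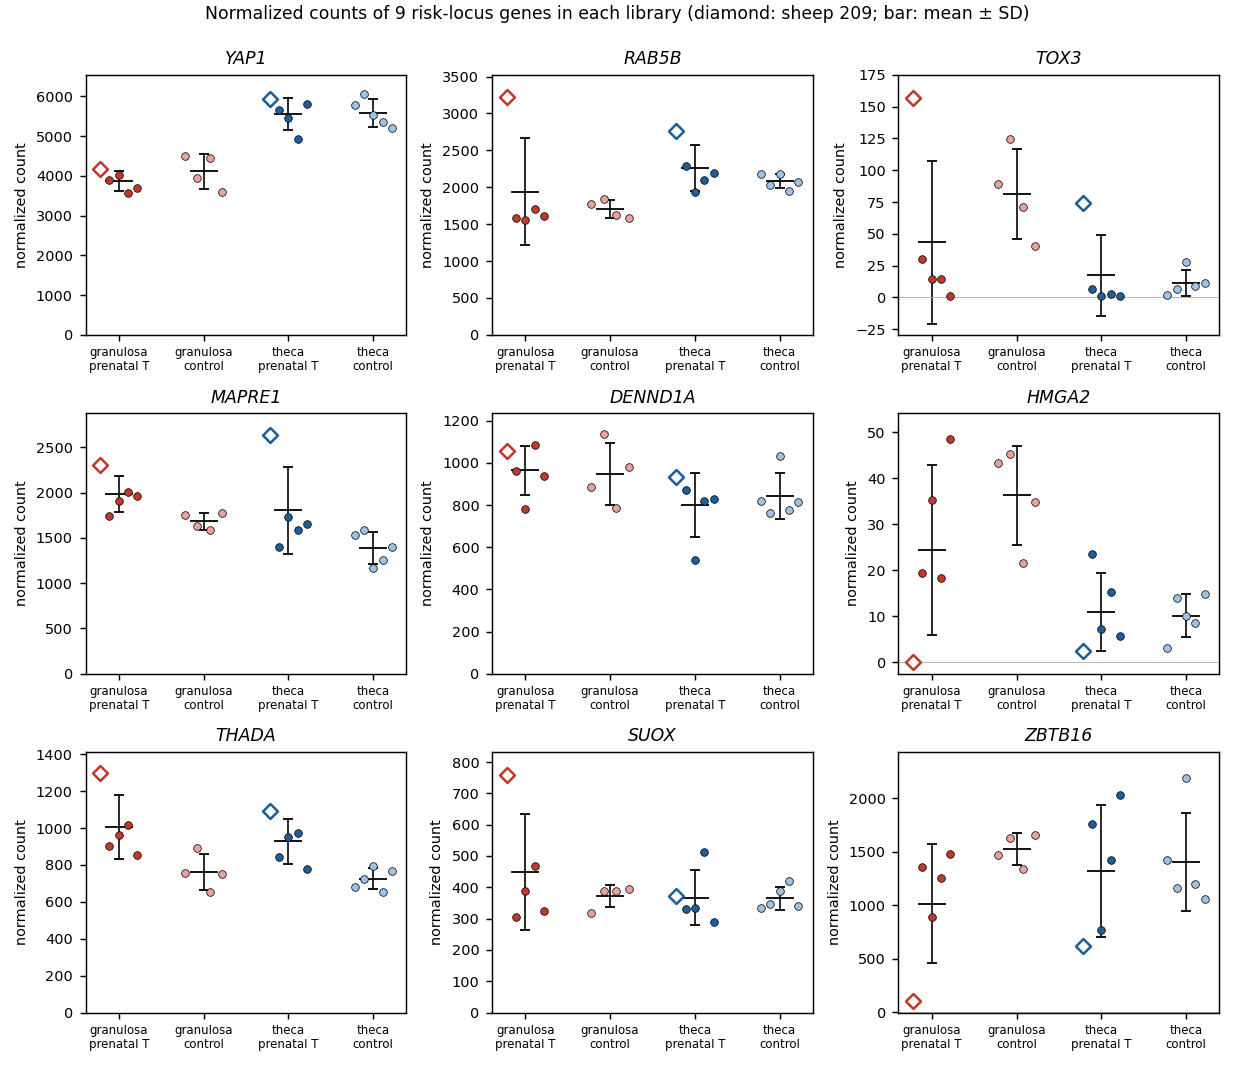
Normalized count (y axis, linear) of each of the 9 genes in every library, by layer and treatment, with granulosa groups in red and theca groups in blue; points are animals, the diamond is sheep 209, and the bar is mean ± SD (n = 5, 4, 5 and 5 from left to right). YAP1 and RAB5B lie lower in granulosa cells outside sheep 209, TOX3 runs from 1.18 to 156 in the prenatal T granulosa libraries, and the THADA points of prenatal T sheep lie mostly above those of controls.

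Values per library below are normalized counts, given for sheep 209, 210, 230, 276 and 315 in the prenatal T groups and for sheep 224, 244, 246 and 268 in the control groups, with sheep 139 first in theca cells. Group values are mean ± SD with n = 5 for prenatal T granulosa, n = 4 for control granulosa and n = 5 for each theca group. Differences are in log2 of the normalized count plus 1, either prenatal T minus control or the granulosa value minus the theca value, with the standard error after ±, and understate the change of genes at low counts. Levels were not compared between genes, since the counts are not scaled by gene length.

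DENND1A codes for a protein of clathrin-coated vesicles that activates a Rab GTPase, and a shortened splice form of it has been linked to androgen output in human theca cells. The table counts whole genes, so splice forms were not separated. In granulosa cells DENND1A had 1055, 961, 783, 1083 and 937 counts in prenatal T sheep, against 888, 1135, 788 and 981 in controls. Theca cells had 931, 873, 538, 820.1 and 831 in prenatal T sheep, against 819.8, 764, 1033, 778 and 816 in controls. Sheep 230 was lowest of the prenatal T animals and sheep 244 highest of the controls in both layers, and the treatment groups overlapped. The granulosa layer was higher in 9 of 9 animals, by 0.23 ± 0.06 (limma, adjusted p = 0.00632), a fold of 1.17. Without the block by animal the same difference had an adjusted p of 0.0973. Prenatal T minus control was 0.03 ± 0.15 in granulosa (95% interval -0.30 to 0.36) and -0.09 ± 0.16 in theca cells (-0.45 to 0.26), or -0.01 ± 0.14 and -0.15 ± 0.16 without sheep 209. In the sheep RefSeq annotation DENND1A overlaps CRB2 and a long non-coding RNA gene, and whether reads were counted by strand was not given in the sources used here, so reads may have been shared.

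RAB5B is a GTPase of early endosomes, to which cargo goes after uptake from the surface. It had 3228, 1581, 1563, 1709 and 1614 counts in granulosa cells of prenatal T sheep, against 1767, 1842, 1622 and 1582 in controls. Theca cells had 2767, 2282, 1942, 2103 and 2191 in prenatal T sheep, against 2181, 2027, 2177, 1951 and 2077 in controls. Sheep 209 was the highest library of each layer. In 8 of 9 animals the granulosa layer was lower, sheep 209 being the exception, and the layers differed by -0.27 ± 0.07 (limma, adjusted p = 0.00595), or -0.34 ± 0.05 without sheep 209 (adjusted p = 8.38e-05). Without the block by animal the call was lost, at an adjusted p of 0.0706. The difference by prenatal T was 0.13 ± 0.22 in granulosa cells, or -0.07 ± 0.09 without sheep 209, and 0.11 ± 0.11 in theca cells, or 0.03 ± 0.09 without it, with groups that overlapped each time.

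SUOX, the neighbour of RAB5B, overlaps it in the RefSeq annotation, so the counts of the pair are uncertain where reads fall in the overlap. In granulosa cells SUOX had 759, 305, 388, 468 and 326 counts in prenatal T sheep, against 319, 387, 388 and 395 in controls. In theca cells the values were 373, 330, 333, 513 and 288 in prenatal T sheep, against 333, 346, 388, 420 and 339 in controls. Apart from 759 in sheep 209, the 4 groups covered much the same range. SUOX did not pass between the layers (0.13 ± 0.12, adjusted p = 0.363), with granulosa higher in 4 and lower in 5 of 9 animals. In sheep 209 the layer difference was 1.02, and without it the mean was 0.02 ± 0.07. With prenatal T the difference was 0.19 ± 0.26 in granulosa cells and -0.01 ± 0.17 in theca cells, and -0.02 ± 0.16 and -0.03 ± 0.17 without sheep 209.

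YAP1 is the coactivator that the Hippo kinases hold out of the nucleus, where it works with TEAD factors, and in mice and cultured cells it is known to favour growth of granulosa cells. It had 4180.4, 3901, 4021, 3577 and 3680.3 counts in granulosa cells of prenatal T sheep, against 4502, 3937, 4447 and 3580.5 in controls. Theca cells had 5924, 5665, 5461, 4920 and 5812 in prenatal T sheep, against 5787, 6052, 5529, 5346 and 5194 in controls. Every theca library was above every granulosa library. The granulosa layer was lower in 9 of 9 animals, with single differences of -0.66 to -0.27, and the mean difference was -0.48 ± 0.05 (limma, adjusted p = 1.01e-05), a fold of 0.717 (95% interval 0.666 to 0.771). Prenatal T groups averaged 3872 ± 246 in granulosa and 5556 ± 396 in theca cells, against 4117 ± 439 and 5582 ± 344 in controls, differences of -0.08 ± 0.11 (95% interval -0.34 to 0.17) and -0.01 ± 0.10 (-0.22 to 0.20). Without sheep 209 they were -0.11 ± 0.11 and -0.03 ± 0.09. Of the 9 genes, YAP1 and DENND1A were those for which sheep 209 lay inside the range of the other animals in both layers. A pseudogene overlaps YAP1 in the RefSeq annotation.

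HMGA2, a chromatin protein of embryonic and growing cells that is held down by let-7 microRNAs, had few reads. It had 0, 19.4, 35.3, 18.3 and 48.5 counts in granulosa cells of prenatal T sheep, against 43.4, 45.2, 21.7 and 34.9 in controls. Theca cells had 2.53, 23.5, 7.33, 15.4 and 5.69 in prenatal T sheep, against 3.17, 14.0, 10.0, 8.66 and 14.8 in controls. A count of 0, as in sheep 209, allows up to 3 reads. A long non-coding RNA gene overlaps HMGA2 in the RefSeq annotation, so reads may have been shared. Sheep 209 was lowest in both layers, and granulosa values of the other animals were mostly above the theca values. HMGA2 was higher in the granulosa layer of 7 of 9 animals, all 4 controls among them, and the exceptions were sheep 209 and 210. The difference of 1.02 ± 0.44 did not pass with all animals (limma, adjusted p = 0.0661) and passed without sheep 209, at 1.38 ± 0.34 (adjusted p = 0.00386). For prenatal T minus control the value was -1.28 ± 1.05 in granulosa cells, of which -0.31 ± 0.42 was left without sheep 209, and -0.09 ± 0.61 in theca cells, or 0.27 ± 0.57 without it.

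TOX3, an HMG-box protein that acts on transcription, varied most among animals. In granulosa cells it had 156, 30.1, 14.7, 14.9 and 1.18 counts in prenatal T sheep, against 88.9, 125, 70.8 and 40.5 in controls. In theca cells it had 74.7, 6.40, 1.05, 3.07 and 1.14 in prenatal T sheep, against 2.12, 6.54, 28.1, 8.66 and 11.4 in controls. Sheep 209 had the highest count of each layer, and the other 4 prenatal T granulosa libraries were all below the 4 controls. Granulosa was above theca in 9 of 9 animals, by 2.04 ± 0.34 (limma, adjusted p = 0.000397), although in sheep 315 the difference was 0.03, on 1 read in each layer. Prenatal T minus control in granulosa cells was -1.98 ± 1.05 (unadjusted p = 0.0902, adjusted p = 0.875), and -1.20 ± 0.77 without sheep 315, whose granulosa library had 1 read (adjusted p = 0.903). Without sheep 209 it was -2.74 ± 0.77 (unadjusted p = 0.00603, adjusted p = 0.704), lower in 4 of 4 animals than in any control, with a fold of 0.150 (95% interval 0.045 to 0.50). On the recovered reads without sheep 209, DESeq2 gave -2.38 ± 0.67 and an adjusted p of 0.0910, which also misses the threshold. Summed theca markers in those granulosa libraries were 21666 to 43085 in prenatal T sheep and 35781 to 85917 in controls. Summed markers of smooth muscle and pericytes were 15239 to 26558 in the 4 prenatal T and 27775 to 41962 in the control libraries, without overlap, as for TOX3. The granulosa library of sheep 209, highest for TOX3, had the lowest such sum of its layer, 13856. Theca libraries, with less TOX3 than granulosa in 9 of 9 animals, had 94713 to 226833. Sums of granulosa, endothelium, immune, epithelium and oocyte markers overlapped between treatments in those granulosa libraries, as the theca sums did. The part of these marker lists in the TOX3 values was not tested. In theca cells, below the minimum for the fit, the difference was -0.61 (two-sided exact permutation p = 0.595) and -1.50 without sheep 209 (exact permutation p = 0.0794, where 0.0159 is the smallest possible).

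ZBTB16 codes for PLZF, a zinc finger repressor that glucocorticoid and progesterone induce in several tissues. Its counts were 104, 1358, 891, 1253 and 1475 in granulosa cells of prenatal T sheep, against 1471, 1627, 1339 and 1661 in controls. Theca cells had 617, 1760, 766, 1422 and 2034 in prenatal T sheep, against 1427, 1162, 2188, 1200.1 and 1061 in controls. Sheep 209 was lowest in both layers and sheep 230 next, and the groups overlapped. In granulosa cells prenatal T minus control was -1.02 ± 0.72 (limma, adjusted p = 0.875), and -0.31 ± 0.16 without sheep 209 (unadjusted p = 0.0844, adjusted p = 0.738). The theca value was -0.19 ± 0.34, and 0.05 ± 0.28 without sheep 209. The layers differed by -0.29 ± 0.26 (adjusted p = 0.367), with granulosa lower in 5 of 9 animals. In sheep 209 the layer difference was -2.56, and without it the mean was -0.01 ± 0.12. The difference between the prenatal T effects of the layers was -0.85 ± 0.49 (unadjusted p = 0.114, adjusted p = 0.960), and -0.38 ± 0.22 without sheep 209.

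**Figure D2:**
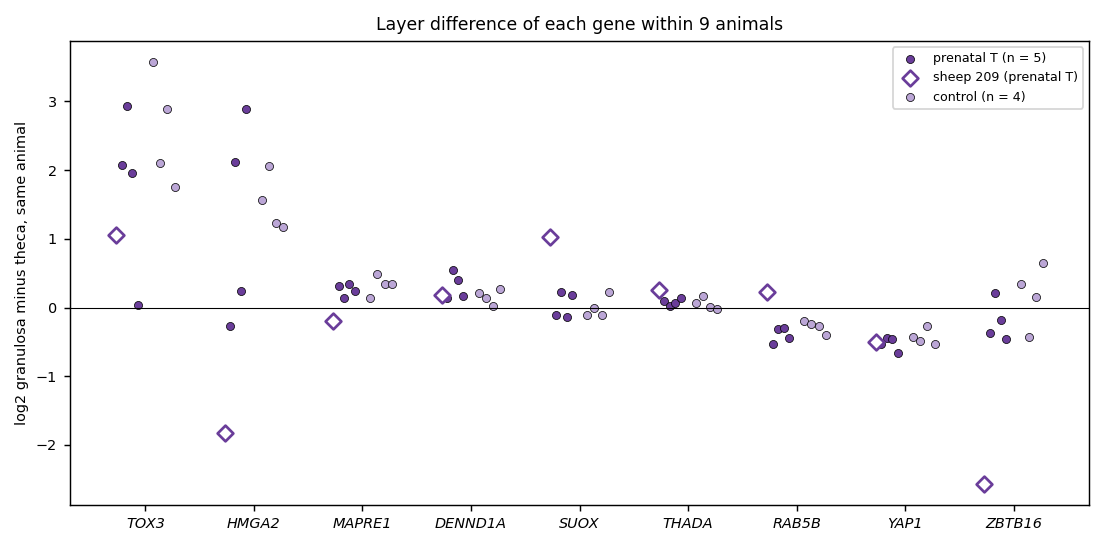
Difference between the granulosa and theca libraries of the same animal (y axis, log2 of the normalized count plus 1) for each gene, dark points prenatal T sheep (n = 5), light points controls (n = 4), diamond sheep 209. TOX3 and DENND1A lie above 0 and YAP1 below 0 in all 9 animals, and sheep 209 is on the other side of 0 from the other 8 for RAB5B and MAPRE1.

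THADA, which was first described in thyroid adenomas and in human cells takes part in the methylation of tRNA ribose, had the smallest unadjusted p of the 9 genes for prenatal T with all libraries. In granulosa cells it had 1299, 901, 965, 1019 and 855 counts in prenatal T sheep, against 755, 891, 655 and 752 in controls. Theca cells had 1091, 843, 951, 976 and 779 in prenatal T sheep, against 683, 724, 792, 655 and 767 in controls. In granulosa cells 4 of 5 prenatal T libraries lay above the highest control, and in theca cells likewise 4 of 5, with sheep 315 the exception in both. The difference was 0.39 ± 0.15 in granulosa cells (unadjusted p = 0.0288, adjusted p = 0.875), a fold of 1.31 with a 95% interval of 1.04 to 1.67. The theca difference was 0.35 ± 0.12 (unadjusted p = 0.0124, adjusted p = 0.644), a fold of 1.28 with an interval of 1.07 to 1.53. Without sheep 209 the differences were 0.30 ± 0.12 and 0.29 ± 0.11 (adjusted p = 0.712 and 0.381), and none of these passes the correction over all genes. In 1 limma fit of all libraries with the animal as a block, unadjusted p was 0.0028 in granulosa and 0.0062 in theca cells (adjusted p = 0.683 and 0.712). The unadjusted limma p in granulosa cells was above 0.05 with any of 4 animals left out. It was 0.0589 without sheep 224, 0.0811 without sheep 246, 0.0584 without sheep 268 and 0.0527 without sheep 276. With any other single animal left out it stayed under 0.05. The layers did not differ past the threshold (0.09 ± 0.05, adjusted p = 0.148), and the same animals supplied both, so the theca values do not repeat the granulosa values in other sheep. A long non-coding RNA gene and a pseudogene overlap THADA in the RefSeq annotation.

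MAPRE1 codes for EB1, which binds growing microtubule ends. It had 2300.2, 1746, 1903, 2011 and 1962 counts in granulosa cells of prenatal T sheep, against 1757, 1629, 1584 and 1772 in controls. In theca cells it had 2638, 1402, 1733, 1584 and 1657 in prenatal T sheep, against 1536, 1591, 1163, 1252 and 1398 in controls. Sheep 209 was highest in both layers, and sheep 210 lowest of the prenatal T animals in both. Prenatal T minus control was 0.23 ± 0.11 in granulosa cells (unadjusted p = 0.0592, adjusted p = 0.875) and 0.35 ± 0.17 in theca cells (unadjusted p = 0.0644, adjusted p = 0.649). Without sheep 209 these values were 0.18 ± 0.09 and 0.21 ± 0.12, with overlapping groups. On some other settings the unadjusted p was under 0.05. In granulosa cells it was 0.0450 with TMM, 0.0476 by edgeR and 0.0228 by DESeq2 (adjusted p = 0.872, 0.724 and 0.527). In 1 limma fit of all libraries with the animal as a block it was 0.0233 in theca cells (adjusted p = 0.723) but 0.179 in granulosa cells (adjusted p = 0.751). The granulosa layer was higher in 8 of 9 animals, sheep 209 excepted, by 0.24 ± 0.07 (adjusted p = 0.00928), or 0.29 ± 0.05 without sheep 209 (adjusted p = 0.000287). Without the block by animal the adjusted p was 0.125.

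**Figure D3:**
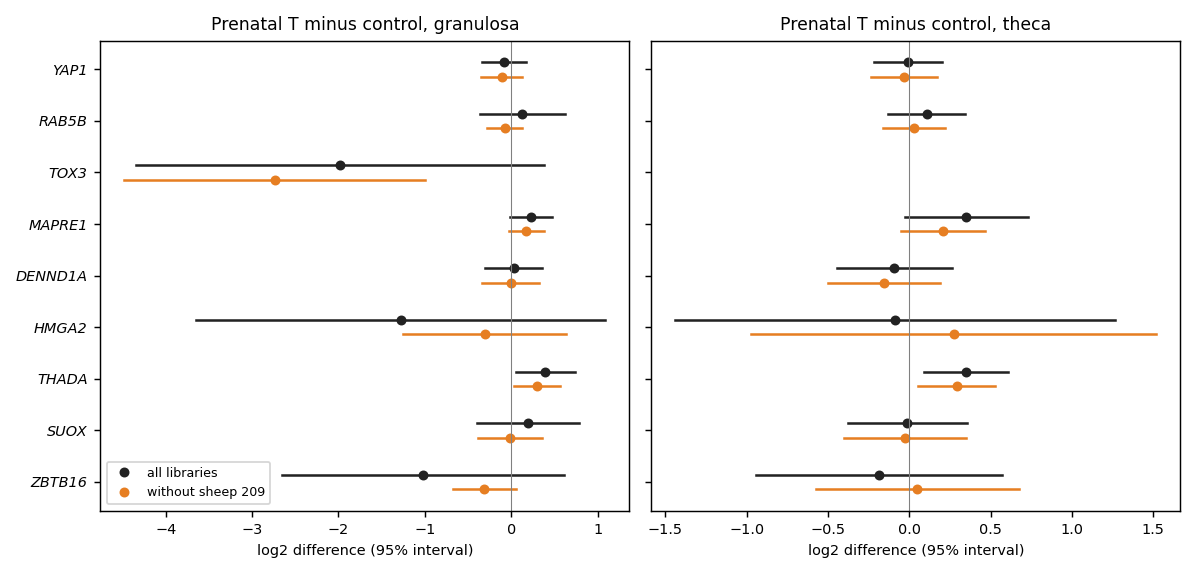
Prenatal T minus control (x axis, log2 of the normalized count plus 1) with its 95% interval from limma, for granulosa (left, x from about -4 to 1) and theca cells (right, x from about -1.5 to 1.5), with all libraries in black and without sheep 209 in orange. The intervals of THADA lie above 0 in both layers before correction over all genes, that of TOX3 in granulosa cells lies below 0 without sheep 209, and TOX3 has no bar in theca cells because it was below the minimum for the fit.

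The groups of each gene can be ordered by their means. For YAP1 and RAB5B the theca means stood above the granulosa means whatever the treatment, with and without sheep 209, and within a layer the treatment means lay within their spread. RAB5B averaged 1939 ± 723 in granulosa cells and 2257 ± 312 in theca cells of prenatal T sheep, against 1703 ± 122 and 2083 ± 98.8 in controls, and the prenatal T means were 1616 ± 65.1 and 2129 ± 145 without sheep 209. For DENND1A both granulosa means (964 ± 118 in prenatal T sheep, 948 ± 148 in controls) stood above both theca means (799 ± 152 in prenatal T sheep, 842 ± 109 in controls), also without sheep 209 (941 ± 123 and 765 ± 153 in prenatal T sheep), with neighbours in the order within their spread. THADA had both prenatal T means above both control means, at 1008 ± 174 in granulosa and 928 ± 121 in theca cells of prenatal T sheep, and 763 ± 96.9 and 724 ± 56.9 in controls; without sheep 209 the prenatal T means were 935 ± 71.8 and 887 ± 92.3. MAPRE1 averaged 1985 ± 203 in granulosa and 1803 ± 483 in theca cells of prenatal T sheep, against 1686 ± 93.5 and 1388 ± 182 in controls. Without sheep 209 the prenatal T means were 1906 ± 115 and 1594 ± 142, the theca mean then lying below that of control granulosa cells. TOX3, at 43.5 ± 64.0 in granulosa and 17.3 ± 32.2 in theca cells of prenatal T sheep against 81.2 ± 35.1 and 11.4 ± 9.96 in controls, had SDs above the mean in both prenatal T groups. Without sheep 209 its prenatal T means were 15.2 ± 11.8 and 2.91 ± 2.51, so that the order of the theca groups turned round. HMGA2 averaged 24.3 ± 18.4 and 10.9 ± 8.49 in prenatal T sheep, against 36.3 ± 10.7 and 10.1 ± 4.69 in controls, with both granulosa means above both theca means, also without sheep 209 (30.4 ± 14.4 and 13.0 ± 8.19 in prenatal T sheep). The 4 group means of SUOX (449 ± 185 and 367 ± 86.8 in prenatal T sheep, 372 ± 35.7 and 365 ± 37.4 in controls) and of ZBTB16 (1016 ± 555 and 1320 ± 615.3 in prenatal T sheep, 1525 ± 149 and 1408 ± 456 in controls) lay within 1 SD of the mean of the group with the widest spread.

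Single animals kept their place across layers in part. Among controls, sheep 244 was highest for DENND1A, THADA and TOX3 in granulosa and in theca cells. For RAB5B sheep 244 was highest in granulosa cells, while in theca cells sheep 139 (2181) stood just above it (2177). For YAP1 sheep 224 was highest and sheep 268 lowest in both layers. Among prenatal T animals, sheep 315 was lowest for THADA and sheep 276 for YAP1 in both layers. Sheep 209 lay outside the range of the other animals for 7 of 9 genes in granulosa cells, beside 66.2% of all genes tested, and for 6 of 9 in theca cells, beside 61.1%. In normalized counts it was above the range for THADA, TOX3, RAB5B and MAPRE1 and below it for HMGA2 and ZBTB16 in both layers, and above it for SUOX in granulosa cells. All normalized counts of sheep 209 summed to 18.5 M in granulosa cells, against 14.5 to 15.5 M in the other granulosa libraries. In theca cells they summed to 19.7 M, also the highest of the layer. Positions above the range may thus depend on the size factors, and positions per total reads were not tested. The epithelial and immune marker sums of sheep 209, given above, were also above those of the other animals in both layers. Its granulosa marker sum in granulosa cells and its theca marker sum in theca cells were below them. The theca marker sum of its granulosa library (28563) and the granulosa marker sum of its theca library (25397) lay inside the range. The part of these marker sums was not tested.

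**Figure D4:**
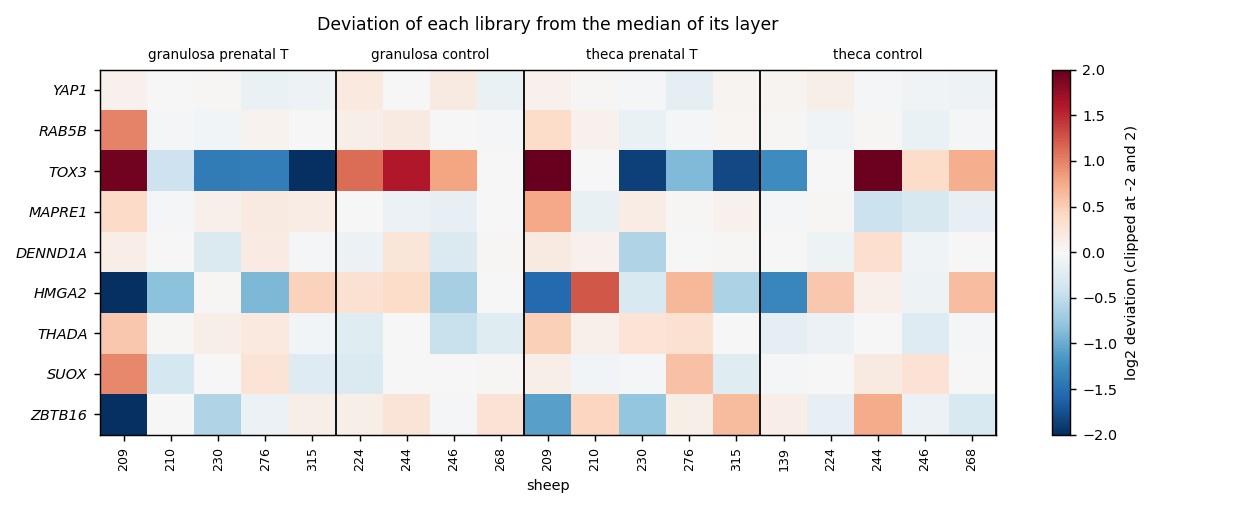
Deviation of each library (columns, sheep number, prenatal T left of control in each layer) from the median of its layer in log2 of the normalized count plus 1, for each gene (rows); red is above and blue below the median, and colours are clipped at -2 and 2. Sheep 209 has the strongest colours of most rows in both layers, and TOX3 and HMGA2 vary most among the other animals.

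ERBB4 itself was not analysed, and of the other ERBB receptors and their ligands 10 were tested between layers. Of these, 5 were higher and 3 lower in granulosa cells, beside 28.6% and 28.0% of all genes, with a median difference of 0.50 beside 0.02 over all genes. Those shares of all genes hold for the counts of the other lists too. ERBB2, the receptor that pairs with the other members, averaged 3285 ± 955 in granulosa and 1529 ± 451 in theca cells (n = 9 each; difference 1.10 ± 0.07, adjusted p = 6.26e-07). EGFR was higher by 0.85 ± 0.07 and the ligand BTC by 1.96 ± 0.23. ERBB3, itself at a risk locus, was lower in granulosa cells (-2.58 ± 0.69, adjusted p = 0.00742). ERBB3 had 3362 counts in the granulosa library of sheep 209, against 0 to 17.03 in the other 8, and 691 in its theca library, against 21.5 to 128 in the other 9. For prenatal T no member passed. ERBB2 had the smallest p in both layers, with 2650 ± 676 in prenatal T and 4079 ± 558 in control granulosa cells (-0.65 ± 0.20, unadjusted p = 0.0103, adjusted p = 0.875) and 1232 ± 221 and 1744 ± 481 in theca cells (-0.47 ± 0.20, unadjusted p = 0.0411, adjusted p = 0.644).

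Of 22 genes of the Hippo pathway and its targets, 3 were higher and 13 lower in granulosa cells (28.6% and 28.0% of all genes), and YAP1 was lower there too. The list median was -0.30 beside 0.02 for all genes. WWTR1, which codes for TAZ, the relative of YAP1, averaged 1078 ± 346 in granulosa and 2989 ± 795 in theca cells (-1.49 ± 0.07, adjusted p = 7.51e-08). The partner factors TEAD3 (-1.62 ± 0.14) and TEAD4 (-2.25 ± 0.26) were lower as well. Summed markers of smooth muscle and pericytes were 13856 to 41962 in granulosa and 94713 to 226833 in theca libraries, and their part, like that of the theca markers above, was not tested. Prenatal T called 0 of 22 genes in granulosa and 0 of 21 in theca cells, the smallest p being those of AJUBA (-0.41 ± 0.21, adjusted p = 0.875) and of the kinase adaptor MOB1A (0.35 ± 0.12, adjusted p = 0.644).

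Among 20 genes of endosomes and the clathrin coat, the partners of DENND1A and RAB5B, 1 was higher and 5 were lower in granulosa cells; the list median was 0.01, beside 0.02 for all genes. DNM2, the dynamin that cuts vesicles free, was higher by 0.41 ± 0.04, while the Rab5 effector APPL1 (-0.42 ± 0.06) and the Rab5 activator RIN2 (-0.57 ± 0.11) were lower, as RAB5B was. Prenatal T called none of the 20 in either layer. CLTC, the clathrin heavy chain, had the smallest p in granulosa cells (0.52 ± 0.27, adjusted p = 0.875), and RIN2 in theca cells (-0.30 ± 0.14, adjusted p = 0.644).

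The relatives of the 3 nuclear factors gave small lists. Of 3 tested genes of the HMGA and let-7 axis, IGF2BP3 (2.43 ± 0.72) and HMGA1 (0.79 ± 0.24) were higher in granulosa cells and none was lower. HMGA1, a sister of HMGA2, was at 1693 and 1046 counts in the granulosa and theca libraries of sheep 209, where HMGA2 had 0 and 2.53. Of 3 other TOX genes 1 passed, TOX2, which averaged 2355 ± 1005 in granulosa and 451 ± 194 in theca cells (2.03 ± 0.38, adjusted p = 0.000807). In sheep 209 TOX2 had 36.8 and 96.2 counts, below all other libraries of each layer, while its TOX3 was above them. Of 14 steroid-response genes and relatives of PLZF 3 were higher and 6 lower in granulosa cells, among them the kinase SGK1 (1.05 ± 0.14) and, on the lower side, ZBTB20 (-0.72 ± 0.07). The medians of these 3 lists were 0.79, 0.18 and -0.13. In these lists too prenatal T called none.

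Around MAPRE1, 5 of 12 plus-end genes were higher and 5 lower in granulosa cells. SLAIN1 (1.68 ± 0.14) and the microtubule polymerase CKAP5 (0.94 ± 0.11) were higher, as MAPRE1 was, and its sister MAPRE2 was lower (-1.02 ± 0.11). Of 10 genes of the molybdenum cofactor and sulfite handling, around SUOX, 3 were higher and 1 lower, with MOCS1, which starts cofactor synthesis, higher by 0.73 ± 0.13, the persulfide dioxygenase ETHE1 by 0.54 ± 0.12 and the cysteine dioxygenase CDO1 by 0.89 ± 0.22. Of 6 tRNA modification genes, around THADA, TRMT6 (0.34 ± 0.09) and TRMT1 (0.37 ± 0.10) were higher and none was lower. Prenatal T called none of these 3 lists. WDR6, the human partner of a tRNA methyltransferase, had the smallest p of its list in both layers, at -0.32 ± 0.15 in granulosa (adjusted p = 0.875) and -0.56 ± 0.25 in theca cells (adjusted p = 0.644), on the other side of 0 from THADA. The medians between layers were 0.05, 0.06 and 0.06 for the plus-end, molybdenum and tRNA lists.

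Of the other genes at human risk loci for the syndrome, 14 could be tested between layers, of which 6 were higher and 4 lower in granulosa cells (28.6% and 28.0% of all genes), with a median of 0.12. FSHR, the receptor through which FSH acts on granulosa cells, averaged 1873 ± 911 there and 342 ± 207 in theca cells (2.25 ± 0.29, adjusted p = 5.54e-05). LHCGR, the LH receptor, was lower in granulosa cells (-2.0 ± 0.40, adjusted p = 0.00131), STON1 was lower too (-0.93 ± 0.10) and FDFT1, an enzyme of sterol synthesis, was higher by 0.64 ± 0.08. For prenatal T, 0 of 13 passed in granulosa and 0 of 14 in theca cells. INSR, the insulin receptor, had 6571 ± 1729 in prenatal T and 9355 ± 1434 in control granulosa cells (-0.54 ± 0.22, unadjusted p = 0.0375, adjusted p = 0.875). KRR1, a ribosome biogenesis factor, had 728 ± 134 in prenatal T and 523 ± 46.8 in control theca cells (0.46 ± 0.14, unadjusted p = 0.00791, adjusted p = 0.644).

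Across the 10 lists, prenatal T called 0 genes in each layer and for the difference between layers. The list medians ran from -0.68 for the HMGA axis to 0.41 for the ERBB list in granulosa cells and from -0.56 for the TOX genes to 0.48 for the ERBB list in theca cells, beside -0.01 and 0.00015 over all genes. Without sheep 209 the ERBB medians were 0.15 in granulosa and -0.13 in theca cells, those of the HMGA axis 0.01 and -0.28, the theca value being 0.34 with all libraries, and those of the TOX genes 0.02 and -0.12. In granulosa cells the HMGA axis had 3 tested genes with all libraries and 2 without sheep 209, and the ERBB list 9 and 8. Those granulosa medians thus do not cover the same genes, and the HMGA axis in theca cells had 2 genes each time. For the other risk loci the medians without sheep 209 were 0.03 and 0.22, from -0.29 and -0.0087 with all libraries. Smaller medians turned too, such as those of the Hippo list, from 0.04 and 0.06 to -0.08 and -0.07. Between layers, leaving out sheep 209 gave 5 higher and 13 lower in the Hippo list, 3 and 5 in the endosome list, 4 and 2 in the molybdenum list, 2 and 2 in the tRNA list and 7 and 4 in the list of other risk loci, beside 62.7% of all genes called; the counts of the remaining lists did not move. The genes of smallest p in the lists not yet given were, in granulosa cells, HMGA1 (1.30 ± 0.77), TOX4 (0.19 ± 0.15), MAPRE3 (-0.72 ± 0.35), TST (0.28 ± 0.20) and DUSP1 (1.26 ± 0.56), each at an adjusted p of 0.875. Without sheep 209 the values that moved by over 1.5 times were HMGA1 (0.73 ± 0.55), TOX4 (0.07 ± 0.10), DUSP1 (0.74 ± 0.24) and CLTC (0.28 ± 0.11). In theca cells they were IGF2BP2 (0.71 ± 0.80), TOX2 (-0.56 ± 0.47), CLIP2 (-0.28 ± 0.15) and AOX1 (-0.36 ± 0.26), at adjusted p of 0.656 to 0.792. Those that moved as much without sheep 209 were IGF2BP2 (0.19 ± 0.70), TOX2 (-0.12 ± 0.28), AOX1 (-0.18 ± 0.21) and WDR6 (-0.29 ± 0.10). For the difference between the prenatal T effects of the layers, granulosa minus theca, every list's gene of smallest p had an adjusted p of 0.960. The values were 0.71 ± 0.18 for DUSP1, a glucocorticoid-induced phosphatase, 1.17 ± 0.35 for HMGA1 and -0.42 ± 0.14 for KRR1. RIN2 (0.46 ± 0.19), STK3 (-0.21 ± 0.10), BTC (-0.53 ± 0.45), TOX2 (-0.55 ± 0.78), MAPRE3 (-0.41 ± 0.28), MOCS3 (-0.23 ± 0.20) and CTU2 (0.26 ± 0.24) stood for the other lists. Without sheep 209 the values were 0.23 ± 0.26 for TOX2, on the other side of 0, and 0.16 ± 0.23 for CTU2. List medians of this difference ran from -1.70 for the HMGA axis to 0.16 for the tRNA list, beside -0.02 over all genes.

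**Figure D5:**
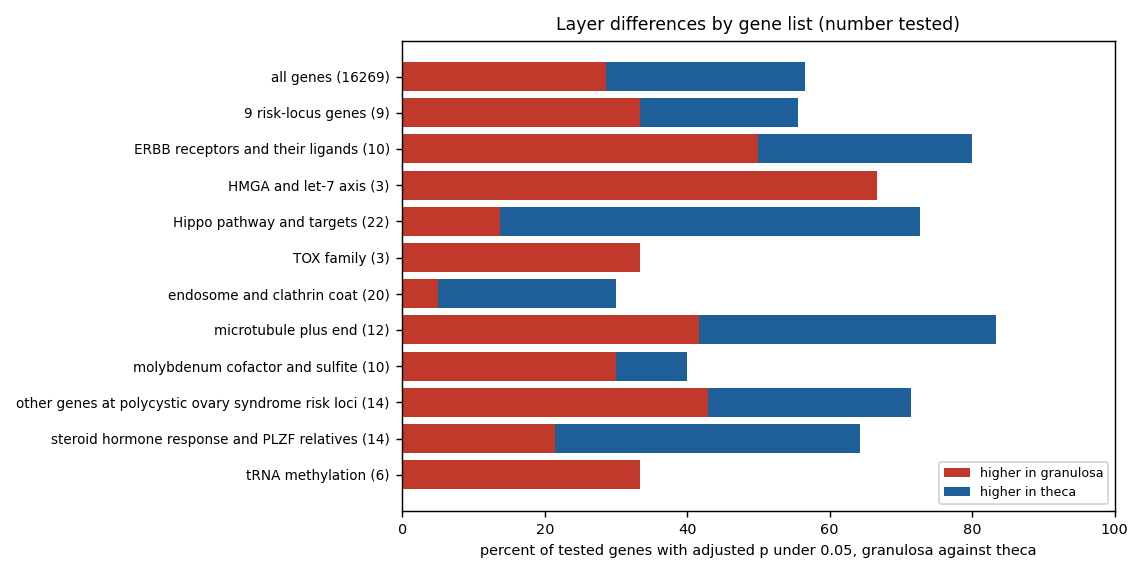
Share of tested genes (x axis, percent, from 0) that were higher in granulosa (red) or in theca cells (blue) by limma with the animal as a block, for all genes, for the 9 risk-locus genes and for each list, with the number tested in brackets. The 9 genes lie close to all genes, the blue share is large in the Hippo list (13 of 22), and the endosome list has few calls (6 of 20); lists of 3 genes show steps of whole genes.

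To place each gene, the table was searched for the genes whose log2 values, centred over the 19 libraries, had the smallest root mean square distance to it, among 10732 genes with a mean of at least 100. NCOR1 (0.11) and PPP1R10 (0.13) were nearest to DENND1A, QKI (0.12) and PHC3 (0.13) to YAP1, and GOLGA2 (0.11) and WDR45B (0.12) to RAB5B. LEO1 (0.12) and TRIT1 (0.13) were nearest to THADA, and UTP15 (0.11) and KPNA6 (0.12) to MAPRE1. The distances of 0.11 to 0.13 for these 5 genes compare with a root mean square variation of 0.24 to 0.27 of the genes themselves. SUOX had DNAJC16 (0.19) and AAGAB (0.20), ZBTB16 had DCHS1 (0.34) and GRIK5 (0.34), and HMGA2 had FGFRL1 (0.54) and TRIB2 (0.59). For TOX3 a near gene was CAMSAP3 (1.09), beside its own variation of 2.02. All distances include both libraries of sheep 209.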

How the data were processed

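Granulosa and theca RNA was freed of ribosomal RNA and made into stranded libraries, per the labels' protocols. The submitters' processing notes list STAR 2.6.0c, Subread 1.6.1 with featureCounts, DESeq2, and for quality checks FastQC 0.11.5 and MultiQC 0.9. The genome build and the strand setting of the counting are not given in the sources used here. Each deposited value is a signal: the authors divided read counts by a size factor for each library. In each library the values fall on a grid with 1 step per read (to a relative tolerance of 1e-06), from which the reads were recovered, 12.7 to 26.0 M per library. The number of value columns without a sample was 0.

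Tests used limma 3.58.1 (R 4.3.3) with a variance trend, on log2 of the normalized count plus 1, for genes that reached 10 in 5 or more libraries. They were two-sided, and Benjamini-Hochberg adjustment covered all genes tested, with 0.05 as the threshold. Prenatal T was compared with control within each layer; the layers, and the prenatal T effects of the layers, were compared with the animal as a block. edgeR 4.0.16 by quasi-likelihood, and DESeq2 1.42.0, took the recovered reads as alternatives. The labels give the same sheep for both layers, which pairs them: deviations from group means correlated at 0.42 to 0.80 between the layers of an animal (across genes, which are not independent), and the own other layer was the best match in 9 of 9 animals. No 2 libraries of a group agreed within sampling noise (chi-square per degree of freedom at least 25.9 in each of 36 pairs). Each animal gives 1 library per layer, so p-values measure the spread between animals. The scripts were tested on simulated data.

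The 9 genes and the 10 partner lists were chosen with earlier results of these data known. Named are all of the 9 genes, in each list up to 3 passing genes of smallest p or else the 1 of smallest p, and the 2 nearest genes of each; some genes that this rule gives are not reported here. LHCGR, ERBB3 and the levels of HMGA1 and TOX2 in sheep 209 were added after their values were seen. Gene neighbours come from RefSeq (sheep assembly ARS-UI_Ramb_v3.0), used for names and neighbours only. Sequences were not used here. NRG4, EGF and CTU1 of the lists and CD163 of the markers were not analysed here.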

Additional observations from a re-analysis of the deposited data

Results flagged for a closer look

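In 7 of 36 tested combinations of gene and group, the highest or lowest library stood apart by Dixon's criterion at the 95% level. The nominal rate of about 1 in 20 is for independent combinations, and these share animals. The criterion was applied to normalized counts without logs, and the share over all genes is not given here. Sheep 209 lay outside the range of the other libraries for 66.2% of all genes in granulosa and 61.1% in theca cells. Of the 7, 4 were libraries of sheep 209: TOX3 at 156 in granulosa cells (others of the prenatal T group 1.18 to 30.1) and 74.7 in theca cells (others 1.05 to 6.40), RAB5B at 3228 in granulosa cells (others 1563 to 1709) and MAPRE1 at 2638 in theca cells (others 1402 to 1733). DENND1A was low in the theca library of prenatal T sheep 230, at 538 (others 820.1 to 931), and high in the theca library of control sheep 244, at 1033 (others 764 to 819.8). SUOX was low in the granulosa library of control sheep 224, at 319 (others 387 to 395).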

How the results depend on the processing

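The alternatives were pseudocounts of 0.5 and 8, no filter or a minimum of 50, TMM scaling, edgeR, DESeq2, both tools without sheep 209, each animal left out and the fits with or without the replicate block. No setting called any of the 9 genes for prenatal T. Over all genes, prenatal T called 0 in granulosa cells, with 16 by DESeq2 and 32 by DESeq2 without sheep 209, and 1 with the animal as a replicate block over all libraries. In theca cells it called 0, with 7 and 58 by DESeq2, and the difference of effects 0, with 18 and 32. Between layers 9210 genes were called with the animal block and 5729 with no replicate block, where 2 of the 9 genes (YAP1 and TOX3) passed in place of 5; leaving out 1 animal gave 8372 to 10045 genes and 5 or 6 of the 9. The cause was not tested.

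The sign turned for some differences that had not passed. In granulosa cells RAB5B was -0.048 by edgeR and -0.045 by DESeq2 without sheep 209. In theca cells HMGA2 was 0.097 by edgeR and 0.10 by DESeq2 (both 0.35 without sheep 209). SUOX was 0.0039 by edgeR and 0.012 by DESeq2 (0.014 and 0.012 without sheep 209), and ZBTB16 was 0.094 by edgeR and 0.092 by DESeq2 without sheep 209. The RAB5B difference of effects was -0.023 with TMM and with edgeR, and -0.14 by edgeR and -0.12 by DESeq2 without sheep 209. ZBTB16 between layers, -0.29 with all animals, was 0.015 by edgeR without sheep 209. Leaving out 1 animal gave, in granulosa cells, -0.057 to 0.12 for DENND1A, -0.073 to 0.19 for RAB5B, -0.018 to 0.31 for SUOX and -2.74 to -1.20 for TOX3. In theca cells it gave -0.15 to 0.043 for DENND1A, -0.033 to 0.036 for YAP1, -0.40 to 0.27 for HMGA2, -0.14 to 0.067 for SUOX and -0.38 to 0.049 for ZBTB16, and -0.12 to 0.067 for the RAB5B difference of effects. HMGA2 between layers passed with edgeR, DESeq2 and a pseudocount of 8. The minimum of 50 left HMGA2 out of every comparison and TOX3 out of those within a layer.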
